A study of Mus musculus with 12 samples.

Results

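Ypel2, Ypel3, Ypel5, Txnip, Arrdc3, Arrdc4, Foxo1, Foxo3 and Sox4 are 9 of the 41325 genes in the deposited tables. Taken by name, they are grouped here as quiescence genes, a label only. Whether these genes mark a quiescent state in these cells was not tested. They were chosen by their measured levels in treated against control libraries, so their values against the control, and the number of them past a threshold there, are descriptions that support nothing. The comparison of the amyloid preparations with each other, in which the control libraries took no part, is the one in which they were tested. The treated libraries of that comparison did take part in the choice, so the test is not wholly independent of it.

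The cells were IMG, an immortalised mouse microglial line, labelled strain C57Bl6/J and genotype wild type, and every library came from the same passage. They received scramble (the control), oAb or fAb for 8 h, with 4 libraries in each group. The series' design text calls oAb fibrillar and fAb oligomeric amyloid beta, crosswise to what the letters would stand for, so the label names alone are used. Nothing in the labels says that the 4 libraries of a group came from separate cultures. The p-values therefore measure the spread between these libraries, which may be technical. An immortalised line divides in culture, which limits it as a model of resting microglia.

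The libraries held 13638721 to 18124419 counts. Of 12 microglial and macrophage markers, 10 had at least 10 counts in every library, Tmem119 was under 1 normalised CPM (counts scaled to library size by TMM over the 12 libraries) in every library, and P2ry12 had means of 5.81 in scramble, 0.94 in oAb and 0.76 in fAb. The summed level of the microglial list was 3510 to 4334 normalised CPM in scramble, 3169 to 3569 in oAb and 3002 to 3404 in fAb. Defining markers of neurons (Rbfox3, Snap25, Syt1), astrocytes (Aqp4), oligodendrocytes (Mog, Olig2, Sox10), endothelium (Cldn5), fibroblasts (Pdgfra) and lymphocytes (Cd3e, Cd3g, Cd79a) had no count in any library, while other genes of most of these lists did. The summed neuron list was 0.92 to 3.48 normalised CPM in scramble against 10.6 to 12.9 in oAb and 10.1 to 12.4 in fAb, mostly Map2. The summed astrocyte list was 0.54 to 0.78 in scramble, 0.99 to 1.89 in oAb and 1.38 to 2.08 in fAb, mostly Gja1. The endothelial sum was 0.06 to 0.25, 0.79 to 1.06 and 0.73 to 1.17, and the fibroblast sum was 0 to 0.16, 2.55 to 4.02 and 1.89 to 2.81, mostly Dcn, with means of 0.013, 2.84 and 2.49. The oligodendrocyte sum was 89.3 to 124 in scramble, 43.5 to 49.3 in oAb and 46.6 to 51.8 in fAb, mostly Mbp, and the lymphocyte sum was at most 0.20 in any library. These lists moved with the treatments, other than the lymphocyte list, and their part in the results was not tested. In bulk RNA, fewer cells of a kind and less RNA per cell cannot be told apart.

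Scramble replicate 3 stood apart: its correlation with the other controls was 0.936 to 0.962, against 0.984 to 0.994 among those 3, and ribosomal protein genes took 10.6% of its counts, a share of 6.37% to 6.73% elsewhere in the group. Libraries also fell into 2 sets by how reads of the near-identical pair Timm23 and Gm10273 had been assigned, with scramble 2, 3 and 4 and oAb 1 and 2 in the Timm23 set and the other 7 libraries, all fAb included, in the Gm10273 set. Values without scramble 3, and from a fit with the set as a term, are given beside the members they move. Mitochondrial transcripts took 4.18% to 4.94% of counts in scramble, 2.73% to 3.37% in oAb and 2.73% to 2.94% in fAb, and their part in the results was not tested.

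Quiescence is a reversible exit from the cell cycle, and several regulators of it answer to growth factor and glucose signalling. FOXO proteins are transcription factors that AKT and SGK kinases keep out of the nucleus when growth factor signalling is high, and in microglia and macrophages they sit downstream of receptors that use PI3K. Txnip and the ARRDC proteins are alpha-arrestins, adaptors that bring NEDD4-type ubiquitin ligases to membrane proteins, and Txnip in addition binds thioredoxin and restrains glucose uptake. YPEL proteins are small, conserved zinc-binding proteins named after the fly gene yippee, and Sox4 is a SOXC transcription factor of progenitor cells.

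The promoters of the members were read for the FOXO motif and for the other motifs named below. RefSeq promoter windows of GRCm38.p6 (the assembly of mm10), from 250 bases before to 50 after an annotated start, were found for 9 of 9 members. Windows of 4 members are shown: Txnip and Arrdc4, which are known targets of the glucose-sensing factor MondoA and its partner Mlx and which lay on opposite sides of the control, and Ypel3 and Sox4, whose levels differed most from the control. Sequences run 5′ to 3′ in the direction of the gene. Capitals mark the FOXO motif GTAAACA, the E-box CACGTG, the CCAAT box and a pair of CACGAG half-sites, each on either strand.
Txnip, chr3:96557707-96558006, plus strand: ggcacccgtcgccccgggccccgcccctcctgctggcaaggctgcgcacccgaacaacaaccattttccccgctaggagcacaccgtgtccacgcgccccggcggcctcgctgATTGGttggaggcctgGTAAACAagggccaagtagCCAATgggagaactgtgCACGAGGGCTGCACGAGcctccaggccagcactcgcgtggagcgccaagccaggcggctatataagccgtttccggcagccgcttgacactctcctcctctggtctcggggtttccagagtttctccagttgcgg
Arrdc4, chr7:68749189-68749488, minus strand: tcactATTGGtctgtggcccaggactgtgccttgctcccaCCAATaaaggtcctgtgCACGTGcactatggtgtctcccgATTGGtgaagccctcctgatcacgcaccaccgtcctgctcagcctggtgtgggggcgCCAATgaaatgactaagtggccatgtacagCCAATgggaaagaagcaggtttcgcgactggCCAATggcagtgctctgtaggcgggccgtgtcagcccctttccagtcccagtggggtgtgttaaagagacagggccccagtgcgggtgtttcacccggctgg
Ypel3, chr7:126776713-126777012, plus strand: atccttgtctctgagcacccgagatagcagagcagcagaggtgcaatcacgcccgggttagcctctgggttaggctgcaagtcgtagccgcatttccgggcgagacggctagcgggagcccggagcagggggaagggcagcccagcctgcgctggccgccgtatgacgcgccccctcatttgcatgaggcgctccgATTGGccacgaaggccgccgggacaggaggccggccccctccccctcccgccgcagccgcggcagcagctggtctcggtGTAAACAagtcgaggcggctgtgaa
Sox4, chr13:28953650-28953949, minus strand: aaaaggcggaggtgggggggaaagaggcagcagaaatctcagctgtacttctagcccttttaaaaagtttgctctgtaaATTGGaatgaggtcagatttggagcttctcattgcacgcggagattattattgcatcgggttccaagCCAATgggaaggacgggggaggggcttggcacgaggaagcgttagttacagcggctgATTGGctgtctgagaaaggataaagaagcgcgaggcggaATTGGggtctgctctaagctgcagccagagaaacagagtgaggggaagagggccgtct
In the Txnip window the FOXO motif lay at bases 130 to 136, counted from 1 at the 5′ end, between an inverted CCAAT box at 114 to 118 and a forward one at 149 to 153. The half-site pair, 2 copies of CACGAG with 5 bases between them, followed at 166 to 182. In the Ypel3 window the FOXO motif lay at bases 276 to 282, past the annotated start, and an inverted CCAAT box at 197 to 201. The Arrdc4 window held CACGTG at bases 58 to 63 and 6 CCAAT boxes, and the Sox4 window held 4 CCAAT boxes and neither of the other motifs.

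GTAAACA was present in windows of 2 of 9 members, Ypel3 and Txnip, and of 4.05% of the 27025 genes with a window. CACGTG was present for Ypel5 and Arrdc4, against 8.09% of all genes. A CCAAT box was present for 8 of 9 members, Foxo3 being without, and for 41.1% of all genes. The cell cycle element TTTGAA, found for 20.2% of all genes, the carbohydrate response element ChoRE in its degenerate form, found for 0.64%, and TATAAA, found for 15.7%, were in no member's window. The GC box GGGCGG was present for 6 of 9 members and 38.2% of all genes, and is not capitalised above. The half-site pair was added to the search after the Txnip window had been read, and of 32851 windows only that of Txnip held it. The ChoRE form searched has its second half-site inverted. It therefore could not match the Txnip pair, whose copies run in the same direction. Its absence does not show that the Txnip window lacks a carbohydrate response element. Variants of the other motifs, the TATA motif included, were not counted. Both strands were searched, and no capitalised matches overlapped in the printed windows. The matches are descriptions of letters, and no binding was measured.

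The levels of the members in the control spanned a wide range. Compared per length, in TPM (counts scaled by transcript length and library size), the scramble means were 352 for Txnip, 52.2 for Foxo3, 42.4 for Ypel3, 13.5 for Ypel5, 7.08 for Arrdc4, 5.56 for Ypel2, 5.08 for Sox4, 3.39 for Foxo1 and 2.74 for Arrdc3. Txnip stood above 97.0% of 11120 tested genes and Arrdc3 above 12.7%. The plot of levels in every library shows the 9 genes side by side.

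**Figure D1:**
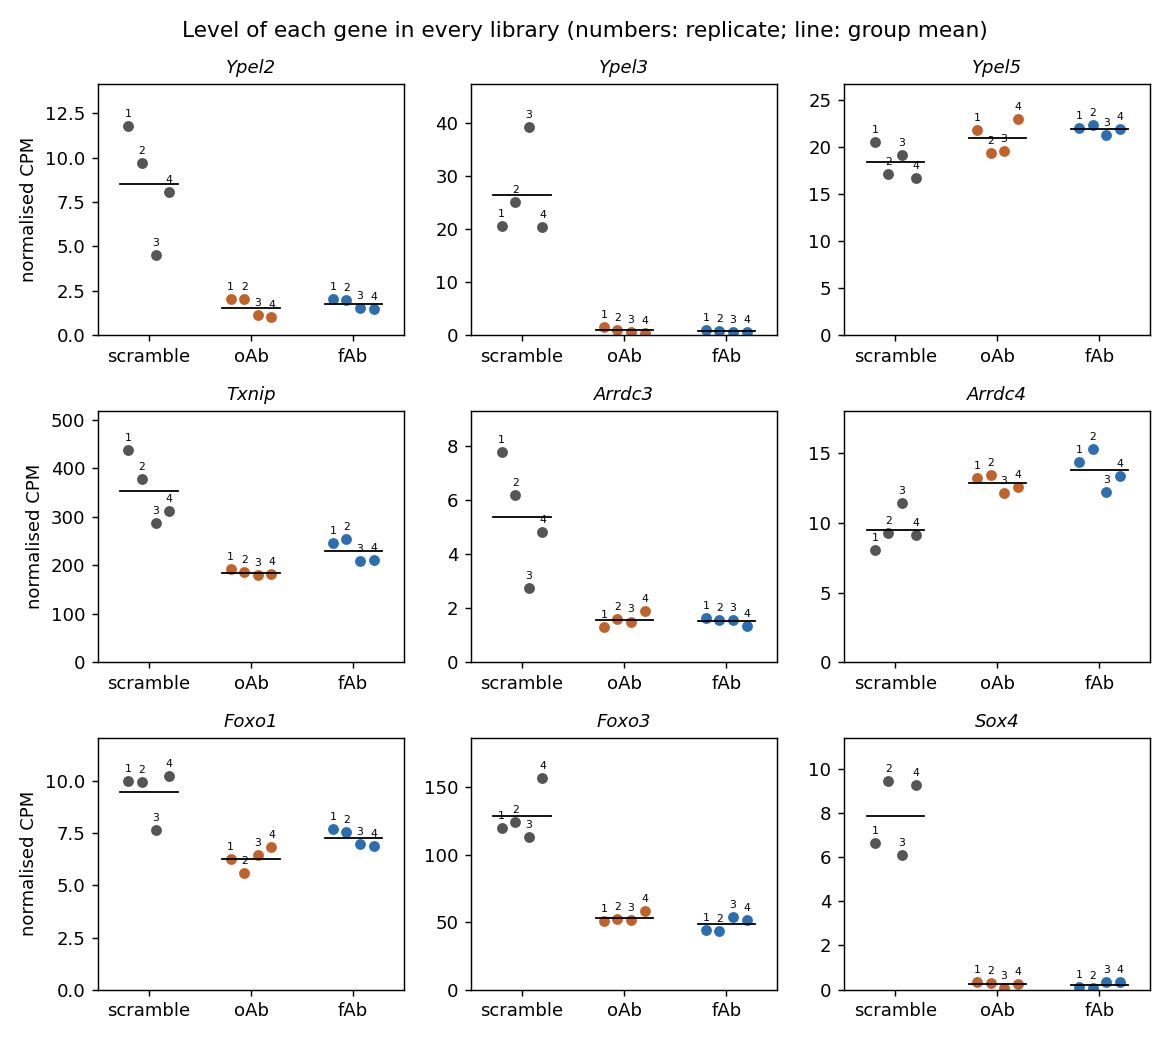
Level of each of the 9 genes in normalised CPM (vertical axis, from 0) in the 4 libraries of each group, with replicate numbers beside the points and a line at the group mean. The treated libraries of Ypel2, Ypel3, Txnip, Arrdc3, Foxo3 and Sox4 lie below every control, those of Arrdc4 lie above every control, and the oAb libraries of Ypel5 overlap it.

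Against scramble, 7 of the 9 members were lower in both treatments: Ypel2, Ypel3, Txnip, Arrdc3, Foxo1, Foxo3 and Sox4. Arrdc4 was higher in both, and Ypel5 lay close to the control. With edgeR's quasi-likelihood test and a threshold of 0.05 on the adjusted p, oAb put 7 members past the threshold as lower and 1 as higher, where 27.0% of 11033 tested genes passed as lower, 25.2% as higher and 52.2% in either direction. In fAb the counts were 7 lower and 2 higher, where 28.8% of 11074 genes passed as lower, 27.6% as higher and 56.3% in either direction. The treated and control libraries did not overlap for 8 members in oAb, where they did not for 51.1% of tested genes (27.0% higher, 24.1% lower), and for 8 in fAb, where they did not for 55.2% (28.4% higher, 26.8% lower). The median log2 fold change of the members was −1.29 in oAb and −1.40 in fAb, where the medians of all tested genes were −0.07 and −0.04. These counts follow from the way the members were chosen, and nothing is read from them. Each comparison uses the same 4 scramble libraries. Scaling by the upper quartile changed the split of all calls from 2777 higher and 2984 lower to 2127 and 4015 in oAb, and from 3051 and 3184 to 2273 and 4361 in fAb. It moved the median of all genes to −0.24 and −0.23.

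Whether Arrdc4 in oAb, and Ypel5 and Foxo1 in fAb, lay past the threshold depended on the setting. With the replicate number as a block, 7 members were past it as lower and 0 as higher in oAb, without Arrdc4, and 7 as lower and 1 as higher in fAb, without Ypel5.

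Ypel3 (ENSMUSG00000042675, chr7:126776955-126780514, plus strand), which in other cells is known as a p53-responsive gene that restrains growth, was among the members furthest below the control. Its counts were 397, 422, 554 and 330 in scramble replicates 1 to 4, 25, 13, 9 and 8 in oAb, and 18, 14, 10 and 11 in fAb. No treated library came near a control, the highest treated count being 25 and the lowest control count 330. Ypel3 was 28.7-fold lower in oAb (log2 −4.84, SE 0.38) and 32.6-fold lower in fAb (log2 −5.03, SE 0.30). Scramble 3 was the highest control at 39.3 normalised CPM, 1.78 times the mean of the others, and without it the log2 fold changes were −4.58 and −4.76. Within oAb, replicate 1 was the highest library at 1.65 normalised CPM, with the others at 0.946, 0.594 and 0.511.

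Ypel2 (ENSMUSG00000018427, chr11:86936425-86993707, minus strand) was lower by a smaller factor and with a wider spread among the controls. It had 11.8, 9.68, 4.54 and 8.04 normalised CPM in scramble 1 to 4, then 2.04, 2.04, 1.12 and 1.02 in oAb, and 2.05, 1.98, 1.51 and 1.46 in fAb. The treated libraries did not overlap the controls, and within each treatment replicates 1 and 2 were above replicates 3 and 4. Ypel2 was 5.55-fold lower in oAb (log2 −2.47, SE 0.34) and 4.79-fold lower in fAb (log2 −2.26, SE 0.29). Scramble 3 was the lowest control, with the mean of the others 2.16 times its level, and without it the log2 fold changes were −2.68 and −2.46.

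Ypel5 (ENSMUSG00000039770, chr17:72836453-72851195, plus strand), known as a partner of the CTLH ubiquitin ligase complex, did not share the direction of its relatives. It had 20.5, 17.2, 19.2 and 16.8 normalised CPM in scramble 1 to 4, 21.9, 19.4, 19.7 and 23.0 in oAb, and 22.1, 22.4, 21.3 and 22.0 in fAb. The oAb libraries overlapped the controls, and the 4 fAb libraries all lay above the highest control. The log2 fold change was 0.17 (SE 0.11) in oAb and 0.27 (SE 0.10) in fAb, and 0.13 (SE 0.15) in fAb with the library set as a term. With upper quartile scaling it was −0.0013 in oAb and 0.08 in fAb, so its direction in oAb depends on the scaling. The call in fAb was lost with that scaling, the set term, the replicate block and either other filter, and on leaving out any 1 library other than scramble 1 or scramble 3. Of the Ypel5 transcript's 50-base words, 1.17% also occur in other genes, and reads from those stretches could have been split.

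The YPEL relatives outside the 9 were fitted too, but their list was drawn up with earlier results of these data known. Their p-values against scramble, and those of the alpha-arrestin, FOXO and SOXC relatives below, are therefore descriptions and not independent support. Ypel1 fell in both treatments. Its counts were 23, 14, 19 and 17 in scramble 1 to 4, 3, 1, 0 and 1 in oAb, and 2, 7, 2 and 1 in fAb. The groups did not overlap, although the levels were low. The log2 fold change was −3.62 (SE 0.50, edgeR adjusted p = 0.000234) in oAb and −2.55 (SE 0.44, edgeR adjusted p = 0.000917) in fAb. It was −4.41 without oAb 1 and −3.33 without fAb 2, the treated libraries with the most Ypel1 counts in their groups (edgeR adjusted p = 0.0003 and 0.00025), and Ypel1 did not pass a filter at a mean of 2 CPM. Ypel4, with summed counts of 15 in scramble, 0 in oAb and 1 in fAb, did not pass the filter on low counts. With no filter it fell in both treatments (edgeR adjusted p = 0.00591 in oAb and 0.00826 in fAb), as it did in DESeq2 (adjusted p = 0.0098 and 0.0166).

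Txnip (ENSMUSG00000038393, chr3:96557957-96561883, plus strand) was the most abundant member and the one in which the preparations lay furthest apart relative to their spread. It had 438, 377, 287 and 311 normalised CPM in scramble 1 to 4, 193, 186, 179 and 182 in oAb, and 246, 255, 209 and 212 in fAb. The 3 groups did not overlap: scramble was highest, fAb was between, and oAb was lowest and least spread, with a coefficient of variation of 3.22%. Txnip was 1.93-fold lower in oAb (log2 −0.95, SE 0.13) and 1.52-fold lower in fAb (log2 −0.60, SE 0.14). Scramble 3 was the lowest control, and without it the log2 fold changes were −1.04 and −0.68. With the library set as a term the value in fAb was −0.90 (SE 0.18). That term leaves scramble 1 as the only control in the set of the fAb libraries, and scramble 1 was the highest control.

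Arrdc3 (ENSMUSG00000074794, chr13:80883384-80896042, plus strand), an adaptor known for sending beta-adrenergic receptors and integrins to degradation, was also lower. Its levels were 7.78, 6.21, 2.77 and 4.83 normalised CPM in scramble 1 to 4, 1.32, 1.60, 1.52 and 1.92 in oAb, and 1.64, 1.58, 1.58 and 1.34 in fAb. The treated libraries sat in a narrow band below every control, on summed counts of only 95 in oAb and 102 in fAb, and the controls were spread widely. Arrdc3 was 3.44-fold lower in oAb (log2 −1.78, SE 0.31) and 3.48-fold lower in fAb (log2 −1.80, SE 0.29). The mean of the other controls was 2.27 times the level in scramble 3, without which the log2 fold changes were −1.99 and −2.01. With the library set as a term the value in fAb was −2.31 (SE 0.33).

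Arrdc4 (ENSMUSG00000042659, chr7:68736995-68749241, minus strand), the alpha-arrestin closest to Txnip in its known regulation by glucose, was higher in both treatments. It had 8.04, 9.26, 11.4 and 9.16 normalised CPM in scramble 1 to 4, 13.2, 13.4, 12.1 and 12.6 in oAb, and 14.4, 15.3, 12.2 and 13.4 in fAb. All 8 treated libraries lay above the highest control, which was scramble 3. Arrdc4 was 1.34-fold higher in oAb (log2 0.42, SE 0.13) and 1.47-fold higher in fAb (log2 0.56, SE 0.14). Without scramble 3 the values were 0.53 and 0.67, with the library set as a term the fAb value was 0.81 (SE 0.22), and with upper quartile scaling the values were 0.25 and 0.37. The call in oAb was lost with upper quartile scaling and without scramble 2, scramble 4, oAb 1 or oAb 2.

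Of the alpha-arrestins outside the 9, Arrdc2 fell in both treatments, by 1.32 (edgeR adjusted p = 0.00119) and 1.11 (edgeR adjusted p = 0.000293) on the log2 scale. Arrdc1 fell by 0.60 (edgeR adjusted p = 0.014) in oAb and 0.61 (edgeR adjusted p = 0.00854) in fAb. The fAb call on Arrdc1 was lost with the library set as a term (edgeR adjusted p = 0.0959). Arrdc5 had no count. Arrdc4 was thus the only fitted alpha-arrestin whose level was above the control, under every scaling tried. The plot of fitted differences by family sets these relatives beside the members.

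**Figure D2:**
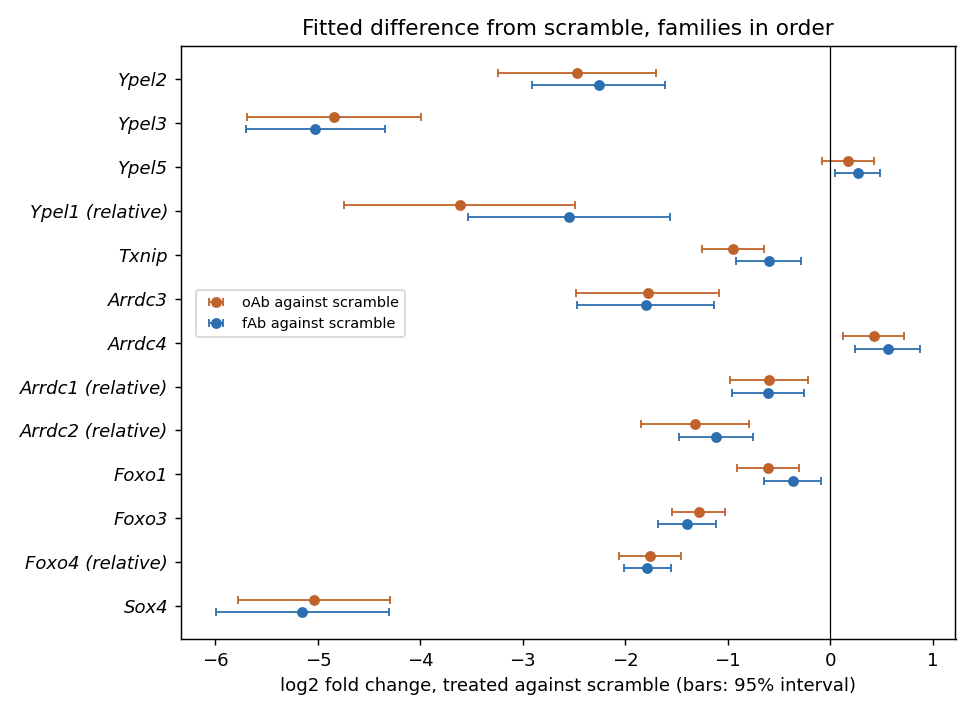
Fitted log2 fold change against scramble (horizontal axis, bars are 95% intervals) in oAb and in fAb for the 9 genes and for the relatives that passed the filter on low counts, ordered by family. Within the YPEL genes Ypel5 lies near 0 and Ypel3 near −5, and within the alpha-arrestins Arrdc4 lies above 0 and the others below it.

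The lists of genes around the members are described by their counts, beside the 52.2% of all tested genes called in oAb and 56.3% in fAb. These lists too were drawn up with earlier results of these data known. The genes named by rule were picked for the smallest adjusted p in these same fits. Their p-values, and the shares called in every list below, are therefore descriptions and not independent support. Of 9 tested regulators and partners of Txnip, 4 rose and 1 fell in each treatment, so that 55.6% were called in each, near the share of all genes. The medians were 0.38 and 0.38. Txnrd1, the thioredoxin reductase that recharges the protein Txnip binds, rose 3.64-fold in oAb (edgeR adjusted p = 4.79e-07) and 3.95-fold in fAb (edgeR adjusted p = 3.17e-07). Slc2a1, the glucose transporter whose surface level Txnip lowers, rose 4.66-fold in oAb, from 58.0 ± 7.32 to 273 ± 18.0 normalised CPM (SD, n = 4 libraries in each group). In fAb it rose 4.3-fold. Nlrp3, the inflammasome sensor that Txnip is known to bind, rose 4.89-fold in fAb, from 67.2 ± 11.4 to 325 ± 9.83 normalised CPM (SD, n = 4 libraries in each group). In oAb it rose 4.64-fold. Mlx also rose, by 1.09 and 1.10 on the log2 scale, and Txnrd2 fell, whereas Mlxip, which encodes MondoA, had values of 0.07 and 0.23 that did not pass. The fAb count of lower genes was 0 with the library set as a term and without fAb 3, and 2 with no filter on low counts and in DESeq2. Of 7 NEDD4-type ligases, 2 rose and 2 fell in each treatment (57.1% called), with medians of 0.08 and 0.04. Nedd4l rose by 0.70 in both and Smurf1 by 1.35 and 1.41, and Nedd4 and Wwp1 fell.

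Of 10 CTLH complex genes, the partners of Ypel5, 1 rose and 3 fell in oAb, and 1 rose and 4 fell in fAb, shares of 40% and 50%. Their medians were −0.21 and −0.15. Rmnd5a, a catalytic subunit, fell 3.30-fold and 2.94-fold, and Rmnd5b, its paralogue, fell 2.14-fold in oAb and 2.08-fold in fAb. Armc8, a scaffold subunit, rose by 0.62 and 0.79 on the log2 scale. The number lower was 6 in oAb and 7 in fAb without scramble 3, and 8 and 7 with upper quartile scaling.

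Foxo3 (ENSMUSG00000048756, chr10:42181841-42276755, minus strand) was the most abundant FOXO gene. It had 120, 124, 113 and 157 normalised CPM in scramble 1 to 4, 51.0, 52.3, 51.7 and 58.3 in oAb, and 44.2, 43.7, 54.2 and 51.7 in fAb. The treated libraries formed a band well below the lowest control. Foxo3 was 2.44-fold lower in oAb (log2 −1.29, SE 0.11) and 2.63-fold lower in fAb (log2 −1.40, SE 0.12). Without scramble 3 the values were −1.34 and −1.44.

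Foxo1 (ENSMUSG00000044167, chr3:52268336-52353221, plus strand) was lower by a smaller factor. It had 10.0, 9.98, 7.67 and 10.3 normalised CPM in scramble 1 to 4, 6.26, 5.60, 6.46 and 6.83 in oAb, and 7.71, 7.57, 6.98 and 6.89 in fAb. All oAb libraries lay below all controls, and in fAb replicate 1 overlapped scramble 3 alone. Foxo1 was 1.52-fold lower in oAb (log2 −0.61, SE 0.13) and 1.29-fold lower in fAb (log2 −0.37, SE 0.12). Without scramble 3 the values were −0.69 and −0.44. The fAb call was lost with the library set as a term, with no filter on low counts, and on leaving out any 1 library other than scramble 3. A predicted gene on the other strand overlaps 7.78% of the Foxo1 exons and had no count in any library.

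Foxo4 was outside the 9 and fell in both treatments, by 1.76 (edgeR adjusted p = 4.48e-06) and 1.79 (edgeR adjusted p = 6.96e-07) on the log2 scale. Foxo6, with 2 counts in scramble and 0 in each treatment, did not pass the filter on low counts, and with no filter it was not called (edgeR adjusted p = 0.271 and 0.241). Foxo1, Foxo3 and Foxo4 were thus below the control in both treatments under every scaling tried.

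Among the kinases, phosphatases and adaptors of the PI3K, AKT and SGK route to FOXO, 25 genes were tested, of which 5 rose and 4 fell in each treatment (36% called), with medians of 0.05 and 0.09. Pik3ip1, an inhibitor of PI3K, fell 30.1-fold in oAb, from 14.7 ± 0.855 to 0.485 ± 0.119 normalised CPM (SD, n = 4 libraries in each group), and 28.9-fold in fAb. Sgk1, a kinase that phosphorylates FOXO proteins, rose 3.34-fold and 3.22-fold. The number lower in oAb was 7 without scramble 3 and 2 without scramble 4, oAb 1 or oAb 2. The number higher in fAb was 8 without scramble 3 and 3 with the library set as a term.

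Of 27 tested FOXO target genes from a list of 32, 5 rose and 12 fell in oAb, and 5 rose and 13 fell in fAb, shares of 63.0% and 66.7%. The medians were −0.21 and −0.33, against −0.07 and −0.04 over all tested genes. S1pr1, a lymphocyte-egress receptor, fell 46.1-fold in oAb, from 36.9 ± 3.54 to 0.801 ± 0.153 normalised CPM (SD, n = 4 libraries in each group), and 35.5-fold in fAb. Sesn1, a stress-responsive inhibitor of mTORC1 signalling, fell 14.5-fold and 11.8-fold. Trp53inp1, Fbxo32, Irs2, Pink1 and Rbl2 also fell in both, whereas Tnfsf10, Sod2, Bnip3, Il7r and Bcl2l11 rose in both. The number higher in fAb was 9 without scramble 3. The latter 10 genes, like Mlx, Txnrd2, Nedd4, Wwp1, and Myc and the cyclins Ccnd1, Ccnd2 and Ccne1 below, are outside the naming rule and were chosen after their values were seen.

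Sox4 (ENSMUSG00000076431, chr13:28948919-28953713, minus strand), a gene of a single exon, was near the detection floor in both treatments. Its counts were 128, 158, 86 and 150 in scramble 1 to 4, 5, 4, 1 and 4 in oAb, and 2, 1, 5 and 6 in fAb. The highest treated count was 6 and the lowest control count, in scramble 3, was 86. Sox4 was 32.8-fold lower in oAb (log2 −5.04, SE 0.33) and 35.6-fold lower in fAb (log2 −5.15, SE 0.37). Without scramble 3 the values were −5.14 and −5.25. A predicted gene on the other strand, Gm26735, overlaps 54.6% of the Sox4 exon and had 2 counts in the controls and 0 in the treated libraries. Its SOXC relative Sox12, with summed counts of 8, 2 and 0 in scramble, oAb and fAb, did not pass the filter on low counts and was not called without it (edgeR adjusted p = 0.267 and 0.0585), and Sox11 had no count. For Txnip, 19.4% of the exons are overlapped on the other strand by Gm15441, which had 5 to 11 counts in a control library and 0 to 7 in a treated one, against at least 2550 for Txnip in every library.

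Of 9 TGF-beta signalling genes, the route known to induce Sox4, 1 rose and 4 fell in oAb, and 3 rose and 4 fell in fAb, shares of 55.6% and 77.8%. The receptor gene Tgfbr2 fell by 1.00 and 0.96 on the log2 scale, and Ski, a repressor of the SMAD proteins, fell by 1.38 and 1.67. The list's medians were 0.00 and −0.35. The number higher in fAb was 1 with a mean of at least 2 CPM required, and 1 with the set term.

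Of 33 tested genes of cell cycle exit (CDK inhibitors, the DREAM complex and antiproliferative factors), 6 rose and 15 fell in oAb, and 7 rose and 16 fell in fAb (63.6% and 69.7% called), with medians of −0.29 and −0.33. Mxd4, an antagonist of Myc, fell 17.6-fold and 17.7-fold, and Tob1, an antiproliferative factor, fell 5.06-fold and 4.71-fold. The number higher in fAb was 3 with upper quartile scaling and 4 with the set term. Of 24 proliferation genes, 4 rose and 14 fell in oAb, and 6 rose and 15 fell in fAb (75% and 87.5% called), with medians of −0.45 and −0.43. Ccna2, a cyclin of S phase and G2, fell 2.30-fold and 2.28-fold, and Foxm1 fell 2.55-fold in oAb. Aurkb fell 2.76-fold in fAb, and its log2 fold change in oAb was −1.51. Myc, Ccnd1, Ccnd2 and Ccne1, which act at entry to the cycle, rose in both treatments. The genes of both lists are drawn in the plot of the pathway lists.

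**Figure D3:**
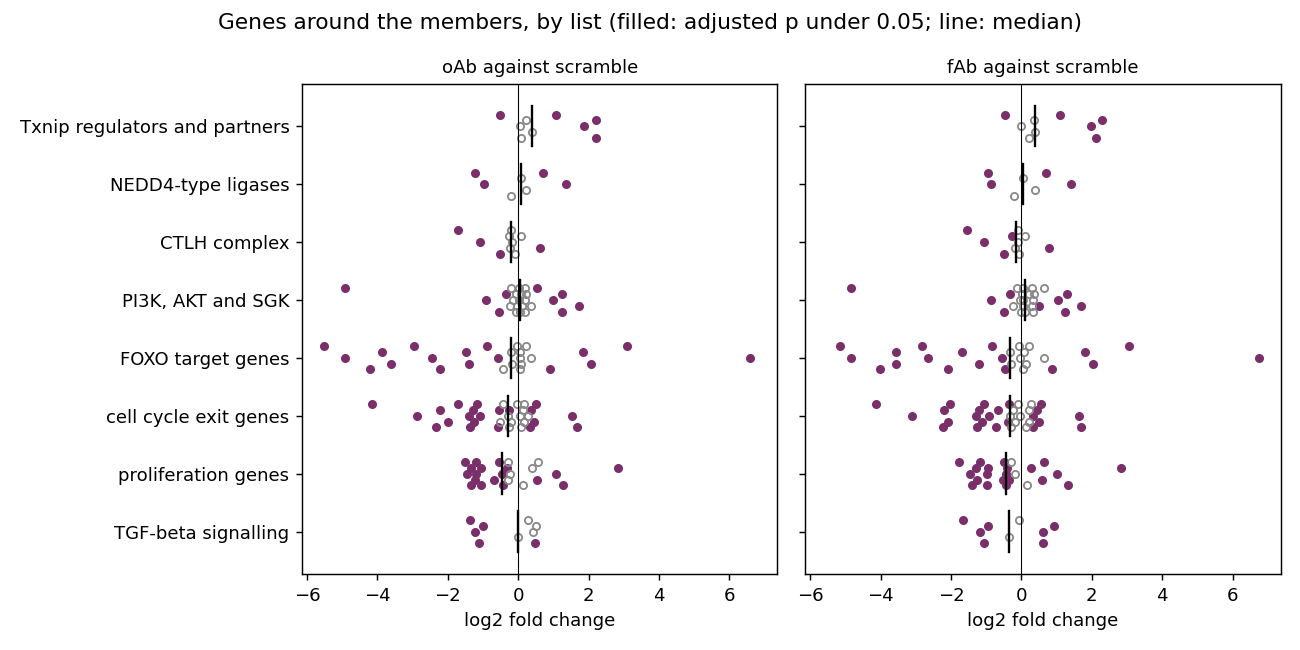
Log2 fold change against scramble (horizontal axis) of every tested gene in 8 lists around the members, in oAb on the left and fAb on the right, where filled points had an adjusted p under 0.05 and the line is the list's median. The medians of the FOXO target, cell cycle exit and proliferation lists lie between −0.21 and −0.45 and that of the Txnip regulators lies at 0.38.

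The controls differed among themselves in these genes, and scramble 3 was at the edge of their range for 8 of the 9. It was the lowest control for Ypel2, Arrdc3, Txnip, Foxo1, Foxo3 and Sox4, the highest for Ypel3 and Arrdc4, and inside the range of the others for Ypel5. Ypel2, Txnip and Arrdc3 were at their highest in scramble 1. The plot of the controls around their mean shows this spread. For the 6 members lowest in scramble 3, leaving it out enlarged the difference from both treatments, and for Ypel3 it made it smaller.

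**Figure D4:**
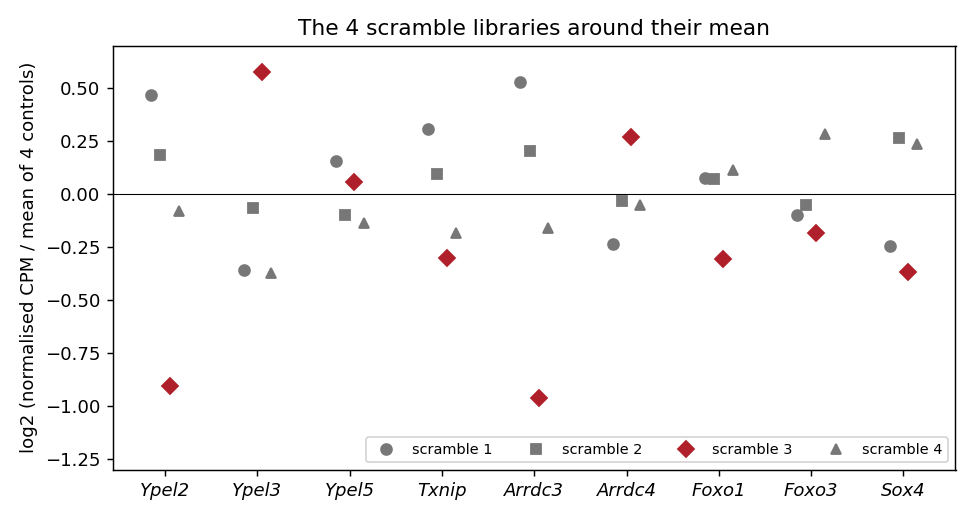
Log2 ratio of each of the 4 scramble libraries to the mean of the 4 (vertical axis) for the 9 genes. Scramble 3 (diamonds) lies furthest down for Ypel2 and Arrdc3 and furthest up for Ypel3.

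The genes most like each member over the 12 libraries, by Pearson correlation of log2 normalised CPM among 9772 candidates, are given without a test, since the groups dominate these correlations. Foxo3 was most like Slc43a2 (r = 0.997) and Tpcn1 (0.993), an amino acid transporter and an endolysosomal channel. Ypel3 was most like Aurkb (0.994) and Polr3gl (0.994), Sox4 like Fbf1 (0.994) and Vgll4 (0.993), and Arrdc3 like Nek4 (0.994) and Sgo2a (0.986). Ypel2 was most like Dnmt1 (0.991), the maintenance DNA methyltransferase, and Appl2 (0.989). For Txnip they were Golga5 (0.988) and Cenpi (0.987), for Foxo1 Mmgt1 (0.976) and Gpr155 (0.973). The members that were higher had Cyb5a (0.952) and Snrnp35 (0.95) beside Arrdc4, and Bco2 (0.94) and Wdr61 (0.908) beside Ypel5.

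Between the preparations no fitted member passed the threshold in the main fit, which does not show that the members were alike in them. In the fit of fAb against oAb, 0 of 8 fitted members had an edgeR adjusted p under 0.05, and 0% of 10878 tested genes did. At an unadjusted edgeR p of 0.05, 1391 genes (12.8%) and 1 of 8 fitted members, Txnip, were below it. The members thus lay near the share of all genes. DESeq2 called 18 genes (0.109% of 16481), Txnip among them, and limma voom called 0 genes and had 1391 (12.8%) at an unadjusted p of 0.05.

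Txnip was higher in fAb, at 230 ± 23.5 normalised CPM, than in oAb, at 185 ± 5.95 (SD, n = 4 libraries in each group), and 4 of 4 fAb libraries lay above every oAb library. The log2 difference was 0.31 with a 95% interval of 0.16 to 0.47, and it did not pass in edgeR (unadjusted p = 0.000825, adjusted p = 0.375). In DESeq2 it was 0.32 with an adjusted p of 0.0465. With the replicate number as a block it was 0.31 in edgeR, with an adjusted p of 0.292. Foxo1 was the other member whose libraries did not overlap between the preparations, where those of 6.27% of tested genes did not (3.12% higher and 3.15% lower in fAb). It was higher in fAb by 0.21 on the log2 scale, with an interval of −0.02 to 0.43 (edgeR adjusted p = 0.406).

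The intervals of the other members are those of the main fit and hold for that fit only. Foxo3 differed by −0.14 (interval −0.32 to 0.03, edgeR adjusted p = 0.43), and Ypel5 by 0.06 (−0.10 to 0.22, edgeR adjusted p = 0.709). The interval of Arrdc4 ran from −0.09 to 0.30 and that of Arrdc3 from −0.47 to 0.36. Those of Ypel2 and Ypel3, which like Arrdc3 had few counts in each treated library, ran from −0.41 to 0.76 and from −1.04 to 0.61. With the library set as a term Ypel2 was at 0.71 (SE 0.26) and Ypel3 at 0.53 (SE 0.39), so the main intervals are not an outer bound. Sox4, with 14 counts in each group, did not pass the filter on low counts here. In order of level, scramble was followed by fAb and then oAb for Ypel2, Txnip and Foxo1, and by oAb and then fAb for Ypel3, Arrdc3, Foxo3 and Sox4. The treated neighbours in that order overlapped for Ypel2, Ypel3, Arrdc3, Foxo3 and Sox4, and did not for Txnip and Foxo1. Arrdc4 and Ypel5 were highest in fAb and lowest in scramble, with overlapping oAb and fAb libraries.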

How the data were processed

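RNA of 12 libraries (2 ug total RNA, spin column) was sequenced with a stranded mRNA kit, per the labels' protocols. The authors deposited 2 tables with total read counts per gene and TPM on trimmed reads, per the file headers. Coordinates are those of mm10, the build that the submitters' processing notes name. Which aligner and counter were used, and whether counting used strand, is not given in the sources used. Control counts were identical in both tables, and no 2 libraries of the same group agreed within sampling noise (chi-square per degree of freedom at least 2.97). Libraries held 13638721 to 18124419 counts.

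Counts were fitted with edgeR 4.0.16 (R 4.3.3; TMM, filterByExpr with a minimum count of 10, robust quasi-likelihood F test, two-sided, Benjamini-Hochberg over all tested genes, threshold 0.05), separately for each pair of groups with 4 libraries in each. The standard error was the absolute log2 fold change divided by the square root of F, and 95% intervals used the fit's degrees of freedom. The script was tested on simulated data. The members and gene lists were chosen with earlier results of these data known. Named are all members and relatives, from each list the 2 genes of smallest adjusted p in each comparison with scramble, and the 2 genes most correlated with each member.

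Same-numbered scramble and fAb libraries deviated together (correlation of deviations 0.16 to 0.306), which by the rule used would pair them. In 0 cases, however, did a library correlate best with its own number, so these correlations do not show a pairing by number. The rule did not pair the other groups. The main fits used no pairing, and the replicate block is given as an alternative. Alternatives were DESeq2 1.42.0, limma voom 3.58.1, other scalings and filters, a replicate block, all 12 libraries, the library set as a term, and leaving out each library.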

Additional observations from a re-analysis of the deposited data

Results flagged for a closer look

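Foxo1 in the scramble group was singled out because 1 library, replicate 3, lay far below the other 3. The gap of that library to its nearest neighbour was 0.887 of the group's whole range, above Dixon's 95% critical value for 4 samples. The values were 7.67 normalised CPM in replicate 3 and 10.0, 9.98 and 10.3 in the others. The 27 groups formed by the 9 genes and 3 treatments were screened, and chance flags about 1 in 20 groups. Scramble 3 is the library that also stood apart over all genes. Without it the Foxo1 difference from scramble was −0.69 in oAb and −0.44 in fAb on the log2 scale.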

How the results depend on the processing

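With DESeq2, 18 genes (0.109% of 16481), among them 1 member, Txnip (log2 0.32, adjusted p = 0.0465), passed in fAb against oAb, where edgeR called 0. With the library set as a term, the number of genes changed in fAb against scramble was 3844 in place of 6235, and Ypel3 in fAb against oAb turned to 0.53. Leaving out 1 library gave 4962 to 7174 changed genes in oAb and 5517 to 7598 in fAb against scramble, and 0 between the preparations. In fAb against oAb it gave Ypel3 values from −0.42 to 0.24 (above 0 without oAb 1) and Arrdc3 values from −0.12 to 0.05 (above 0 without oAb 4, and 0.01 without fAb 4), none of which passed. Upper quartile scaling turned Ypel5 in oAb against scramble to −0.0013. The replicate block gave 5081 and 6292 changed genes against scramble and 0 between the preparations. It ended the calls on Arrdc4 in oAb and Ypel5 in fAb and changed no other call on a member. Of the members' other values under the alternatives, 149 in oAb, 144 in fAb and 128 in fAb against oAb kept their direction and moved by less than the spread or stayed on their side of the threshold. A further 3 in oAb and 9 in fAb kept their direction but moved by more, under upper quartile scaling or, in fAb, also the set term. With that scaling Foxo3 was at −1.45 in oAb and −1.58 in fAb, Foxo1 at −0.78 and −0.55, and Txnip in fAb at −0.79. Ypel2, Ypel3 and Arrdc3 have no value in fAb against oAb where a mean of 2 CPM was required, nor has Sox4 in most settings. Depth limits Sox4, Ypel2, Ypel3 and Arrdc3 in the treated libraries. The causes of these changes were not tested.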
